A study of Mus musculus with 8 samples.

Results

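The comparison was between the higher and the lower dose of prenatal nicotine in newborn mice: the 2 arrays labelled 4.5 mg/kg/day against the 2 labelled 1.5 mg/kg/day, 4 of the 8 arrays in the series. They were chosen by their titles, and the saline arrays did not enter. All pups were BALB/c, an inbred albino strain, taken on postnatal day 1. Each dam had carried an osmotic minipump under the skin, a device that releases fluid at a constant rate, which was implanted during pregnancy to deliver nicotine, and birth was natural. RNA came from tissue labelled as the rear part of the palate, and the labels call the arrays of a dose biological replicates. The extraction protocol gives pups with n = 2. Pooling of pups and the number of litters are not stated in the labels. The p-values therefore measure only the spread between these samples, which may be technical. The other arrays of the series, 2 at 3.0 mg/kg/day and 2 with saline, are quoted beside some genes as levels only. In bulk tissue, fewer cells of a type and less RNA per cell cannot be told apart.

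Nicotine acts on nicotinic acetylcholine receptors, channels built from several subunits that open when acetylcholine or nicotine binds. The muscle form sits under the nerve ending on muscle fibres, and neuronal forms are found in nerve cells, epithelia and some immune cells. The rear palate of a newborn is the soft palate, a fold of striated muscle, connective tissue and glands covered by oral epithelium on one face and nasal epithelium on the other. The shelves that form it have met and fused before birth, so a newborn palate is read after fusion.

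Values were deposited as linear intensities of 45101 probe sets per array, with a median of 22.1 and 24.3 at 1.5 mg/kg/day and of 20.7 and 21.0 at 4.5 mg/kg/day. Levels and differences below are on the log2(intensity + 16) scale after quantile normalization, unless an intensity is named, and a difference is 4.5 minus 1.5 mg/kg/day. The added 16 shrinks differences near background. Where pairs of intensities are joined by "against" and no dose is named, the 1.5 mg/kg/day pair comes first and replicate 1 leads each pair. Across the 13455 genes tested, the correlation between arrays was 0.90 within the 1.5 mg/kg/day pair and 0.95 within the 4.5 mg/kg/day pair, and 0.89 to 0.93 between arrays of different doses. The 1.5 mg/kg/day pair differed by more than 1 log2 unit at 985 genes and the 4.5 mg/kg/day pair at 541 genes. The ratio of 3' to 5' signal of the actin control, which rises as RNA breaks down, was 1.39 and 1.20 at 1.5 mg/kg/day. It was 1.15 and 0.95 at 4.5 mg/kg/day, with no overlap. The same ratio of the Gapdh control was 1.14 and 1.08 at 1.5 mg/kg/day and 1.06 and 0.91 at 4.5 mg/kg/day, also with no overlap. The part of RNA quality in the results was not tested.

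The tissue label was checked against marker lists. Striated muscle markers were high in all 4 arrays, with a median log2 level as deposited of 10.7 and 11.2 at 1.5 mg/kg/day and of 11.2 and 11.2 at 4.5 mg/kg/day, and all 30 stood above the level filter of 4.91. None of 8 enamel and dentin genes, such as Amelx and Dspp, passed that level in any array. Markers of other organs were present, and unequally. Alb, the main plasma protein of the liver, had intensities of 19.8 and 5001 at 1.5 mg/kg/day and of 20.4 and 25.2 at 4.5 mg/kg/day. Myh6, the atrial heart myosin, was at 25.2 and 3844 against 85.4 and 73.99. Sftpc, the surfactant protein of lung alveolar cells, was at 8.62 and 4727 against 685 and 697. Replicate 2 at 1.5 mg/kg/day thus carried transcripts typical of liver, heart and lung that its partner had at most at low levels. Replicate 1 at 1.5 mg/kg/day stood apart in another way. It had Col2a1, the collagen of cartilage, at 3317 against 45.8, 79.5 and 54.3 in the other arrays, and Krt10, a keratin of cornifying epithelium, at 5367 against 236, 139.9 and 349. The lists that the results turn on are therefore also given without these arrays.

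**Figure D1:**
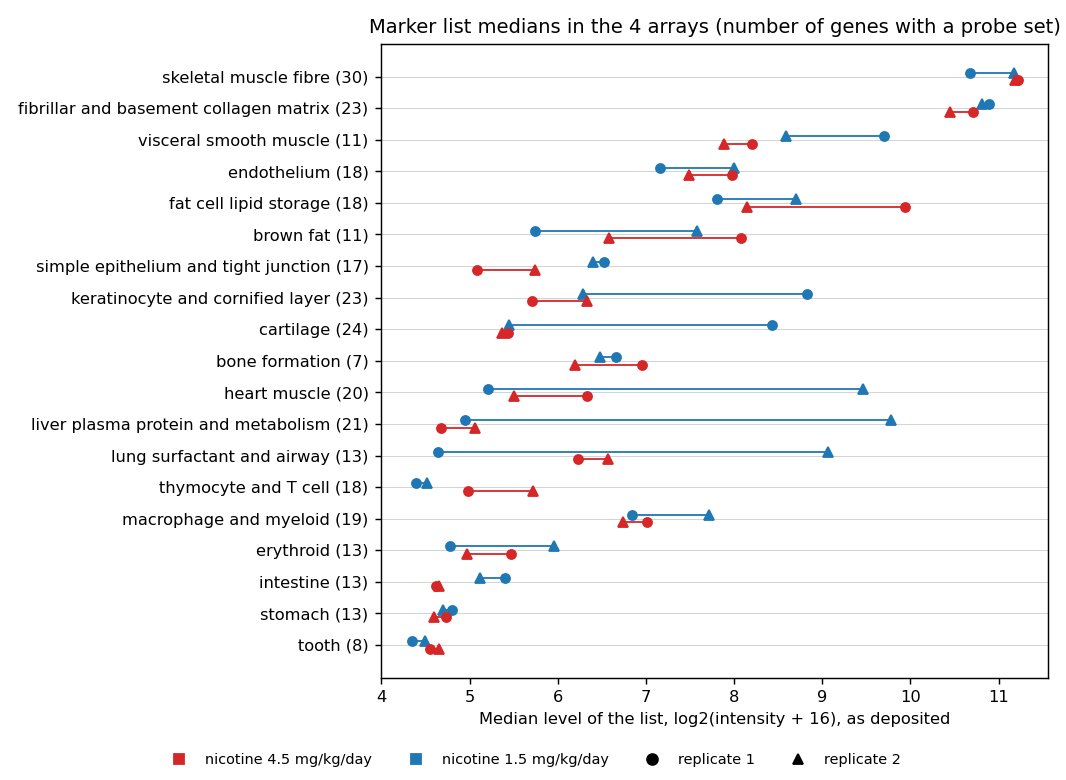
Median level of each marker list, as log2(intensity + 16) of the deposited values, in the 4 arrays. Red marks 4.5 mg/kg/day, blue 1.5 mg/kg/day, circles replicate 1 and triangles replicate 2, and a line joins the arrays of a dose. The 1.5 mg/kg/day pair was 4.95 against 9.78 for liver, 5.21 against 9.46 for heart and 8.43 against 5.45 for cartilage, while the tooth list lay between 4.34 and 4.65 in every array.

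No gene passed the test between the doses. Of 23174 probe sets tested with limma, 0 (0%) had a Benjamini-Hochberg adjusted p under 0.05, and the lowest adjusted p was 0.708. At an unadjusted p under 0.05 there were 1522 probe sets (6.57%). With 1 probe set per gene, 383 genes (2.85%) with higher and 394 (2.93%) with lower levels at 4.5 mg/kg/day had an unadjusted p under 0.05. The median difference over all genes was 0.01. The genes named below are described by their values, and "higher" and "lower" say only how the arrays were ordered. None of them had an adjusted p under 0.708 in limma, and for most it was 0.708.

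Genes whose arrays did not overlap between the doses, both as deposited and after normalization, numbered 4004 of 13455 (29.8%). In 1744 (13%) both arrays at 4.5 mg/kg/day lay above both at 1.5 mg/kg/day, and in 2260 (16.8%) both lay below. A difference of more than 1 log2 unit together with no overlap was found for 143 genes with higher and 163 genes with lower levels at 4.5 mg/kg/day. These shares are the background against which each list is read, and a list near them shows nothing about its members.

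**Figure D2:**
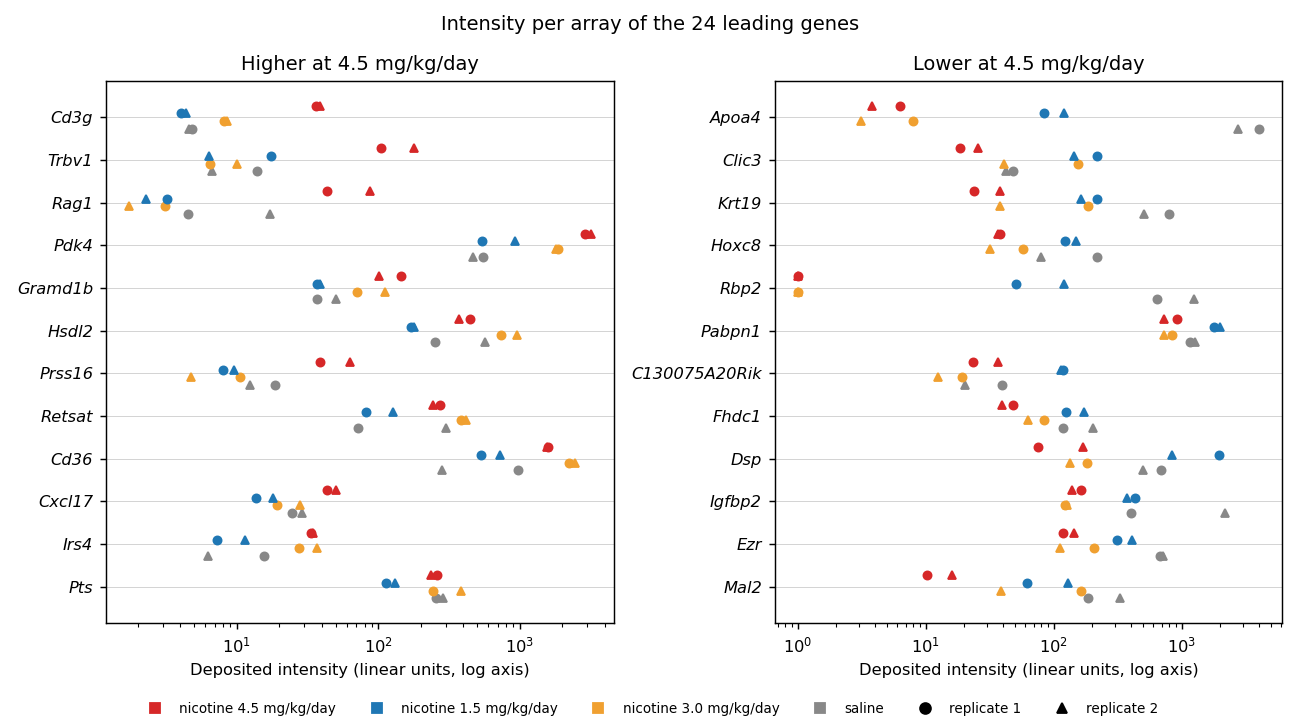
Deposited intensity of the 24 non-overlapping genes with the smallest limma p, 12 higher and 12 lower at 4.5 mg/kg/day, on a log axis with 1 point per array. Red is 4.5, blue 1.5, orange 3.0 mg/kg/day and grey saline, circles are replicate 1 and triangles replicate 2. Cd3g lay at 36.1 and 38.5 at 4.5 mg/kg/day against 4.02 and 4.41 at 1.5 mg/kg/day, and Apoa4 at 6.29 and 3.83 at 4.5 mg/kg/day against 84.4 and 120.1 at 1.5 mg/kg/day.

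Genes of developing T cells led the higher side. In the thymus, immature T cells rearrange their receptor genes and assemble the receptor with the CD3 proteins. Cd3g, a signalling chain of that receptor complex, had intensities of 4.02 and 4.41 at 1.5 mg/kg/day and of 36.1 and 38.5 at 4.5 mg/kg/day, a difference of 1.45 ± 0.19 (SE, limma unadjusted p = 0.000436). Cd3d, its neighbour and partner chain, was at 7.36 and 7.92 against 25.1 and 45.1, a difference of 1.14 ± 0.26. Neither gene overlapped between the doses, and all values at 1.5 mg/kg/day were near background. The means there, 4.34 for Cd3g and 4.56 for Cd3d, were under the level filter. Both genes passed it through their level at 4.5 mg/kg/day, so their order and p-values are no support.

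The start regions of these genes are shown because Cd3g and Cd3d lie side by side and point away from each other, and because Rag1, the enzyme that cuts receptor genes for rearrangement, was ordered like them. Each run holds 250 bases before the start and 50 after it, 5′ to 3′ on the gene's strand, from RefSeq on GRCm38.p6. Capitals mark matches to CAGGTG, a sequence of the E-box kind, searched on both strands, so that a match on the other strand reads CACCTG.
Cd3g, chr9 minus strand, chr9:44980382-44980681: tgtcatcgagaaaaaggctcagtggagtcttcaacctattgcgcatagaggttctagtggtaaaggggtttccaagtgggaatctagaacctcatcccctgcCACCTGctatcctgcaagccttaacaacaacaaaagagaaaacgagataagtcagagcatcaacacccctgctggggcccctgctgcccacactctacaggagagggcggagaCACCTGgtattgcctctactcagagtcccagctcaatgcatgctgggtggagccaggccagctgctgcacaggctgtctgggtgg
Cd3d, chr9 plus strand, chr9:44981536-44981835: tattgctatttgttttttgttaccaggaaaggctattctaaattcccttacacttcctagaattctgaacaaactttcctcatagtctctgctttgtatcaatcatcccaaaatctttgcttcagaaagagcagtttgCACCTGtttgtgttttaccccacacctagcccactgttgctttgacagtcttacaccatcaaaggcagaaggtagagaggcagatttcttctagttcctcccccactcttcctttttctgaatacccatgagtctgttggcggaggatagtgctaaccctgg
Rag1, chr2 minus strand, chr2:101649483-101649782: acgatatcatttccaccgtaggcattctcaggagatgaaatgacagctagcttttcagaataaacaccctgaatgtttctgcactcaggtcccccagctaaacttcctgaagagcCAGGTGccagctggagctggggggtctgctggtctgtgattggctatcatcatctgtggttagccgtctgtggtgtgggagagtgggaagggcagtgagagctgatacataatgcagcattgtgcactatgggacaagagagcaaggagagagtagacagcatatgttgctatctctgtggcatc
CAGGTG matched 2 times in the Cd3g window, 1 time in Cd3d and 1 time in Rag1, and it occurs in 20.2% of 32851 windows of this length, so a match is a description only.

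Rag1 was at 3.21 and 2.28 at 1.5 mg/kg/day and at 43.2 and 87.4 at 4.5 mg/kg/day, a difference of 2.11 ± 0.31 (SE, limma unadjusted p = 0.000689). Trbv1, a variable segment of the T cell receptor beta chain, was at 17.3 and 6.33 against 104 and 180.1, a difference of 2.54 ± 0.34. Themis, which tunes receptor signalling during thymocyte selection, was at 3.76 and 1 against 24.4 and 58.01. Prss16, a protease of the thymic cortex epithelium, was at 7.94 and 9.5 against 38.9 and 63.5. For each of these genes both arrays at 4.5 mg/kg/day were above both at 1.5 mg/kg/day. Rag1, Trbv1, Themis and Prss16 had means of 4.23, 4.76, 4.20 and 4.62 at 1.5 mg/kg/day, all under the level filter. Like Cd3g and Cd3d, they passed it through their level at 4.5 mg/kg/day, so their order and p-values are no support. The 3.0 mg/kg/day arrays had Cd3g at 8.13 and 8.58 and Rag1 at 3.12 and 1.73, and the saline arrays had Rag1 at 4.51 and 17.2. The T cell list had 18 genes with a probe set. Of these, 3 and 4 stood above the level filter in the arrays at 1.5 mg/kg/day, and 10 and 13 in those at 4.5 mg/kg/day. The 7 genes that failed the filter were Cd2, Cd3e, Cd4, Cd8b1, Dntt, Ptcra and Rag2. Of the 11 tested, 8 had a mean under the filter at 1.5 mg/kg/day and passed through their level at 4.5 mg/kg/day, so their count is no support: 6 did not overlap, all higher, and the median difference was 0.67. Leaving out an array gave medians from 0.27 (without replicate 2 at 4.5 mg/kg/day) to 1.20 (without replicate 1 at 4.5 mg/kg/day). B cell and immunoglobulin genes showed 1 of 5 without overlap, Blnk, an adaptor of the B cell receptor. It was lower at 7.86 and 8.98 at 4.5 mg/kg/day against 45.2 and 18.3 at 1.5 mg/kg/day. The mean of Blnk at 4.5 mg/kg/day, 4.61, was under the level filter, so this count is no support.

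Genes known to respond to glucocorticoids were higher by the median. These steroid hormones act through a nuclear receptor that raises a set of metabolic and stress genes in many tissues. Pdk4, a kinase that turns off pyruvate dehydrogenase and so spares glucose, had intensities of 539.95 and 932 at 1.5 mg/kg/day and of 2891 and 3172 at 4.5 mg/kg/day. The difference was 1.94 ± 0.29 (SE, limma unadjusted p = 0.000812), at levels far from background. Pdk4 was at 1853 and 1809 at 3.0 mg/kg/day and at 550.4 and 471 with saline. Ddit4, an inhibitor of the growth kinase mTORC1, was at 151 and 513 against 1788 and 987, a difference of 2.07 ± 0.56. Its 3.0 mg/kg/day arrays stood at 279 and 239. Foxo1, a transcription factor of the fasting response, was at 133 and 254 against 415 and 288. Cdkn1a, the cell cycle inhibitor p21, was at 908 and 932 against 1439 and 1548. These 4 genes did not overlap, though the gap was small for Foxo1, whose higher array at 1.5 mg/kg/day was 254 and lower array at 4.5 mg/kg/day 288.

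Of 22 glucocorticoid response genes, all tested, 10 (45.5%) had arrays without overlap and all 10 were higher at 4.5 mg/kg/day. Over all genes the share higher was 13%. Beyond those named, they were Tsc22d3, Zbtb16, Gadd45a, Sgk1, Angptl4 and Glul. Tsc22d3, which encodes the glucocorticoid-induced leucine zipper, was at 111 and 389.8 against 401 and 796, so that its replicate 2 at 1.5 mg/kg/day lay just under replicate 1 at 4.5 mg/kg/day. Fkbp5, a receptor co-chaperone often used to read this response, overlapped at 206 and 517 against 504 and 886. The list's median difference was 0.84 and 21 of the 22 differences were above 0. That median was 0.23 without replicate 1 at 1.5 mg/kg/day and 1.44 without replicate 2, since replicate 1 had the lower levels. The median level of the list as deposited was 7.96 and 9.05 at 1.5 mg/kg/day, 9.24 and 9.76 at 4.5 mg/kg/day, 8.21 and 8.01 at 3.0 mg/kg/day, and 8.14 and 8.42 with saline. Both arrays at 4.5 mg/kg/day were thus above all others in the series on this median.

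Muscle wasting genes pointed the same way. Fbxo32 encodes atrogin-1, a ubiquitin ligase of wasting muscle, and was at 50.05 and 168 at 1.5 mg/kg/day and at 172 and 559.9 at 4.5 mg/kg/day. The gap between its doses was narrow, 168 against 172. Trim54, a sarcomeric ubiquitin ligase, was at 200.4 and 288 against 301 and 668, also with a narrow gap. Trim63, or MuRF1, was at 166 and 846 against 864 and 2169: its values were in order but overlapped after normalization. All 7 tested genes of the list had differences above 0 and 3 (42.9%) were higher without overlap, against 13% of all genes. The list's median was 0.85, and 0.49 without replicate 1 at 1.5 mg/kg/day. Foxo1 and Foxo3 belong to both this list and the glucocorticoid list.

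Fat genes had median differences above 0, with wide spread inside each dose and array medians that overlapped between the doses. Cd36, which carries fatty acids into cells, was at 531 and 731 at 1.5 mg/kg/day and at 1583 and 1556 at 4.5 mg/kg/day, a difference of 1.19 ± 0.22 (SE, limma unadjusted p = 0.00216). At 3.0 mg/kg/day it stood at 2247 and 2447. Cd36 is shown with its start region on GRCm38.p6, again from RefSeq, because it carries a match to AGGTCA, the core sequence bound by many nuclear receptors, marked in capitals and read as TGACCT on this strand.
Cd36, chr5 minus strand, chr5:17835847-17836146: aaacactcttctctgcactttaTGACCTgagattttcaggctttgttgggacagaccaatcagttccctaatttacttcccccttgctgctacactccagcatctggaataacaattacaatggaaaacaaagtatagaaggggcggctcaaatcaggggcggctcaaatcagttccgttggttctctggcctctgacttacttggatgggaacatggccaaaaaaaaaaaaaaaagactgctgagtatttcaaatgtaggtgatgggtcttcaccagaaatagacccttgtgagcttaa
AGGTCA, searched on both strands, occurs in 16.3% of the 32851 windows, and it was not found in the window of Pdk4. Lipe, the hormone-sensitive lipase, was at 61.6 and 123 against 651 and 198, a difference of 1.88 ± 0.54. Pnpla2, the lipase that makes the first cut in stored fat, was at 313 and 844 against 2323 and 1401. Adig, a small protein of fat cells, was at 57.5 and 111 against 484 and 175. In Lipe, Pnpla2 and Adig the first array at 4.5 mg/kg/day was well above the second.

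Of 17 fat storage genes tested, 9 (52.9%) had arrays without overlap, all higher, against 13% of all genes. The list's median difference was 0.81. It ranged from 0.50 to 1.44 when an array was left out. Median levels of the list as deposited were 7.81 and 8.71 at 1.5 mg/kg/day and 9.94 and 8.14 at 4.5 mg/kg/day. On this median the arrays overlapped, and replicate 2 at 4.5 mg/kg/day lay below replicate 2 at 1.5 mg/kg/day. Of 11 brown fat genes, 5 (45.5%) were higher and 1 (9.09%) lower without overlap, against 13% and 16.8% of all genes. Among the 9 with means above the level filter at both doses, 5 did not overlap, counting both directions. Another gene without overlap passed the filter only through the dose where it was high and is no support. The list's median was 1.20. Its median levels as deposited were 5.74 and 7.58 at 1.5 mg/kg/day and 8.08 and 6.58 at 4.5 mg/kg/day, so the arrays overlapped here too. Brown fat burns fuel to make heat. Cidea, a lipid droplet protein abundant there, was at 121 and 302 against 2241 and 675, a difference of 2.47 ± 0.59, and at 2262 and 2610.4 at 3.0 mg/kg/day against 71.8 and 33.7 with saline. Ucp1, the protein that uncouples brown fat mitochondria, overlapped widely at 5.12 and 399 against 4025 and 79.6. Zic1, a transcription factor of dorsal brown fat, was lower, with a difference of -1.05. The brown fat median was 0.59 without replicate 1 at 1.5 mg/kg/day and 1.68 without replicate 2, and whether the arrays held different amounts of fat was not tested.

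Mitochondrial respiration genes were also higher by the median. All 23 tested had differences above 0, 8 (34.8%) without overlap, against 13% of all genes. The list's median was 0.49. Its median levels as deposited were 10.18 and 10.85 at 1.5 mg/kg/day and 11.68 and 10.84 at 4.5 mg/kg/day, so the arrays overlapped on this median. Etfa, which passes electrons from fatty acid oxidation to the respiratory chain, was at 462 and 919 against 2466 and 1154, a difference of 1.17 ± 0.41. Cox7a1 and Cox8b, cytochrome oxidase subunits of muscle and brown fat, belong to both lists: Cox8b was at 611 and 1356 against 3419 and 1553 and Cox7a1 at 171 and 947 against 2284 and 1018. Ndufa4, found in many tissues, was at 1178 and 1498 against 2645 and 1823. The median of the list was 0.21 without replicate 1 at 1.5 mg/kg/day, 0.76 without replicate 2, and 0.28 without replicate 1 at 4.5 mg/kg/day. Other genes that led the higher side act in metabolism or signalling. Hsdl2, a peroxisomal dehydrogenase-like protein, was at 169 and 179 against 446 and 375, and Retsat, an enzyme that saturates retinol, was at 82.3 and 126 against 275 and 245. Neither gene overlapped between the doses. Gramd1b, a carrier of cholesterol to the endoplasmic reticulum, was at 36.8 and 38.8 against 145 and 102. Pts, an enzyme of tetrahydrobiopterin synthesis, was at 114 and 132 against 259.8 and 236. Irs4, a docking protein of insulin and growth factor receptors, was at 7.29 and 11.4 against 33.2 and 34.7. Its mean of 4.65 at 1.5 mg/kg/day was under the level filter, which it passed through its level at 4.5 mg/kg/day. Cxcl17, a mucosal chemokine, was at 13.8 and 18.04 against 43.7 and 50.2.

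Stress lists mostly lay nearer the background. Among 17 hypoxia genes, 5 were higher and 2 lower without overlap, with a median of 0.08. Bnip3, a mitophagy receptor, was at 398 and 950.02 against 1721 and 1536, while Slc2a1, the glucose transporter GLUT1, was lower at 178 and 295 at 4.5 mg/kg/day against 330.02 and 532 at 1.5 mg/kg/day. Among 19 genes of the NRF2 antioxidant response, 4 were higher and 1 lower. Hmox1, heme oxygenase, was at 55.95 and 50.6 against 75.3 and 108, and Gpx3, the plasma glutathione peroxidase, at 167 and 676 against 1392 and 996. The clock list had 2 higher and 1 lower of 15, with Nr1d1, the repressor REV-ERB alpha, at 10.8 and 21.3 against 45.3 and 25.3. Immediate early genes had 4 higher and 1 lower of 24, heat shock and unfolded protein genes 3 and 2 of 21, and interferon-induced genes 1 and 0 of 20. Their medians were 0.07, -0.11 and 0.18. The share higher was 29.4% for hypoxia, 21.1% for NRF2 and 16.7% for immediate early genes, against 13% of all genes.

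Simple epithelium had the largest share of genes lower without overlap among the lists. Such epithelia are single sheets joined by tight junctions and keratins, as in glands, gut and airways. Of the 12 leading lower genes, only Krt19 is on that list. Krt19, a keratin of simple epithelium, was at 218 and 163 at 1.5 mg/kg/day and at 23.9 and 38.2 at 4.5 mg/kg/day, a difference of -2.07 ± 0.28 (SE, limma unadjusted p = 0.000517). Cdh1, the adhesion protein E-cadherin, was at 499 and 468 against 101 and 195, a difference of -1.67 ± 0.33 (unadjusted p = 0.0031 in limma). Spint1, an inhibitor of epithelial serine proteases, was at 90.96 and 75.1 against 25.6 and 37.6. Both arrays at 4.5 mg/kg/day lay below both at 1.5 mg/kg/day in each case. Cldn7, a tight junction protein, was at 75.8 and 55.9 against 8.63 and 24.8.

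Of the 17 listed genes of simple epithelium with a probe set, 15 were tested and 12 (80.0%) had arrays without overlap, all lower, against 16.8% of all genes. Besides those named they were Esrp1, Krt7, Krt8, Epcam, Ocln, Cldn4, Elf3 and Grhl2. Of the 12, Ocln, Cldn4 and Elf3 had a mean under the level filter at 4.5 mg/kg/day and passed through 1.5 mg/kg/day. Among the 12 tested genes with means above it at both doses, 9 did not overlap. All 15 differences were below 0, with a median of -1.12, and 11 had an unadjusted p under 0.05 in limma, none of which held after adjustment over all probe sets. The median stayed between -0.86 and -1.45 when any array was left out. The signs, the median and its range include Ocln, Cldn4 and Elf3, and the 11 include Ocln and Cldn4. Those genes are no support in any of these values. Median levels as deposited were 6.52 and 6.4 at 1.5 mg/kg/day, 5.08 and 5.74 at 4.5 mg/kg/day, 6.16 and 5.39 at 3.0 mg/kg/day, and 8.30 and 7.90 with saline. The values at 3.0 mg/kg/day lay within the range of the other doses. Krt19 itself was at 186 and 38 at 3.0 mg/kg/day and at 793 and 509.9 with saline.

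Clic3, a chloride channel family protein, was at 218 and 144 against 18.6 and 25.7, a difference of -2.29 ± 0.30. Dsp had the largest difference of the 24 leading genes. It encodes desmoplakin, which ties keratin filaments to desmosomes in stratified epithelium and heart muscle. Its intensities were 1959.9 and 843 at 1.5 mg/kg/day and 74.98 and 171 at 4.5 mg/kg/day, a difference of -3.37 ± 0.57 (SE, limma unadjusted p = 0.00142). Its other 2 probe sets were also lower without overlap. The start region of Dsp, on GRCm38.p6 from RefSeq, is shown for comparison with the T cell genes, because CAGGTG, again in capitals, also lies there.
Dsp, chr13 plus strand, chr13:38151044-38151343: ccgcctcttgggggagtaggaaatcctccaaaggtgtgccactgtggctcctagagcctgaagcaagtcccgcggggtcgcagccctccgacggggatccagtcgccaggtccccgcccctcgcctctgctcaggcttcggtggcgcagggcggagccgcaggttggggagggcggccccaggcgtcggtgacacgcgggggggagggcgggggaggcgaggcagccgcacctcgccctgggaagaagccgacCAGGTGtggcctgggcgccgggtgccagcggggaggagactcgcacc
The Dsp window held 1 match, just after the start, and the window of Clic3 also held 1. Genes that were higher and genes that were lower at 4.5 mg/kg/day thus both had the motif. TATAAA, in 13.6% of all windows, was in none of the windows examined. Mal2, a protein of apical sorting, was at 61.6 and 129 against 10.3 and 16.1. Its mean of 4.88 at 4.5 mg/kg/day was under the level filter, which it passed through its level at 1.5 mg/kg/day. Ezr, the ezrin that anchors microvilli, was at 312 and 413 against 118 and 145.

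Intestinal genes were lower at 4.5 mg/kg/day at small intensities. Apoa4, an apolipoprotein made by gut epithelium, had the smallest unadjusted p of the named genes, 5.82e-05 in limma, with 84.4 and 120.1 at 1.5 mg/kg/day and 6.29 and 3.83 at 4.5 mg/kg/day. Its difference was -2.44 ± 0.22. Fabp2, the intestinal fatty acid binding protein, was at 138 and 64.8 against 13.1 and 11.8. Rbp2, which binds retinol in gut cells, was at 50.6 and 119 against 1 and 1, where 1 is the lowest value on those arrays. The mean of Rbp2 at 4.5 mg/kg/day, 4.09, was under the level filter, so it too passed through its level at 1.5 mg/kg/day. With saline these genes stood far higher: Apoa4 at 4057 and 2762, Fabp2 at 4770.4 and 3095 and Rbp2 at 645 and 1252. Of 13 intestinal genes with a probe set, 10 and 9 stood above the level filter at 1.5 mg/kg/day and 5 and 5 at 4.5 mg/kg/day. Of the 6 tested, 3 had a mean under the filter at 4.5 mg/kg/day, Apoa4 and Fabp2 among them, and passed through their level at 1.5 mg/kg/day, so count and median are no support: 3 were lower without overlap, and the median of -0.69 was -0.16 without replicate 1 at 1.5 mg/kg/day and -1.26 without replicate 2. The tissue that gave these transcripts was not tested.

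**Figure D3:**
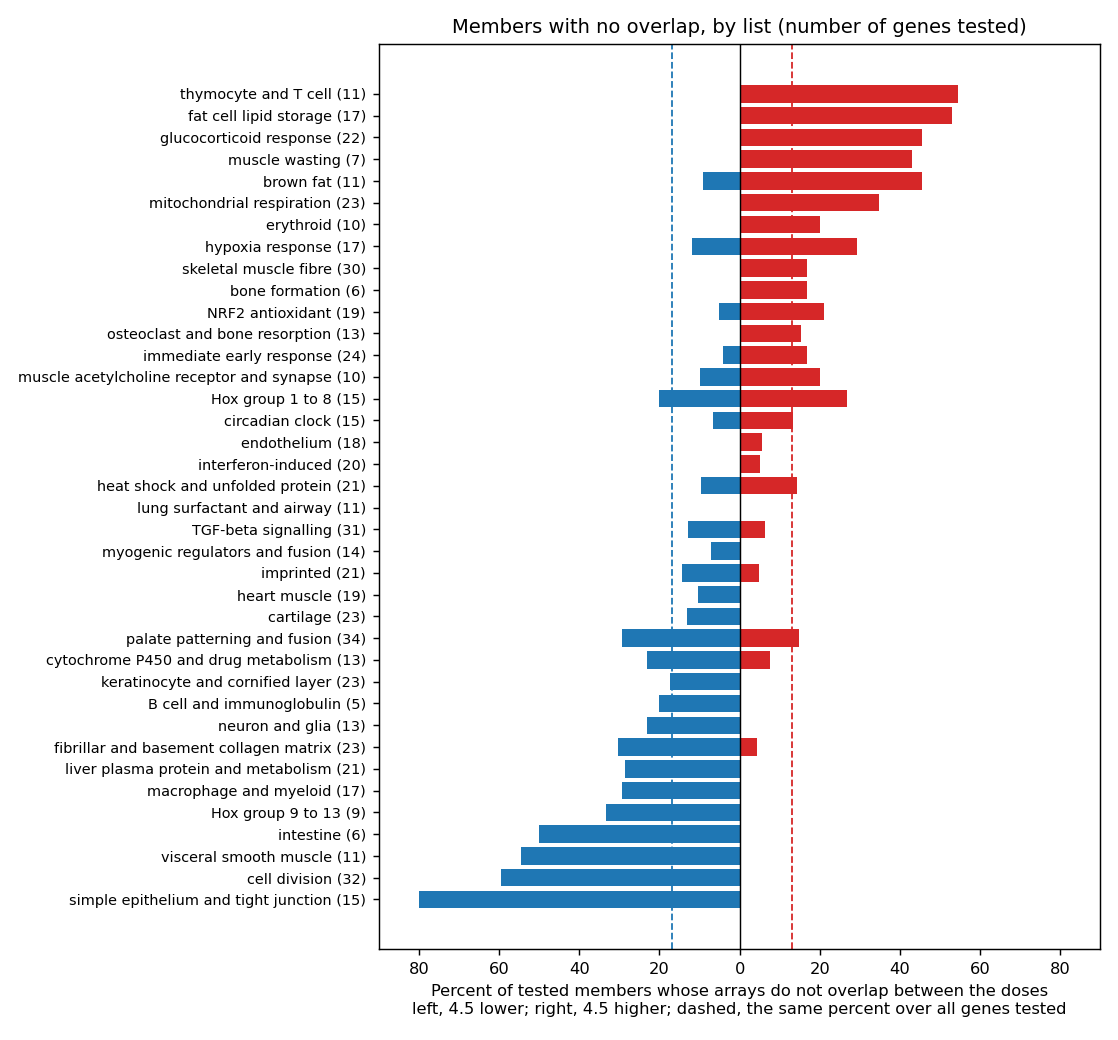
Percent of tested genes in each list whose arrays did not overlap between the doses, with the number tested in brackets, for lists of 5 genes or more. Red bars to the right count genes higher at 4.5 mg/kg/day and blue bars to the left genes lower, and dashed lines mark 13% and 16.8%, the shares over all genes. Glucocorticoid response genes reached 45.5% on the right, and simple epithelium 80.0% on the left. Genes that passed the level filter only through the dose where they were high are no support. They make up most or all of the T cell, intestine, B cell and Hox group 9 to 13 bars. They are also 3 of the 12 simple epithelium genes and 3 of the 6 liver genes. The brown fat, cell division, keratinocyte, osteoclast, neuron and glia and palate lists each hold 1 such gene. So do the Hox group 1 to 8, NRF2 and drug metabolism lists.

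Cell division genes were lower at 4.5 mg/kg/day by small amounts. All 32 had differences below 0 and 19 (59.4%) were lower without overlap, against 16.8% of all genes. Among the 31 with means above the level filter at both doses, 18 were lower without overlap. The remaining gene passed the filter through 1.5 mg/kg/day and is no support. The list's median was -0.56. Rrm1, a subunit of the enzyme that makes DNA precursors, was at 311 and 378 against 238 and 142, a difference of -0.83 ± 0.27, although its other probe set went the opposite way. Cdc6, which loads the replication helicase, was at 49.95 and 51.1 against 27.9 and 15.4. Pcna, the sliding clamp of DNA polymerase, was at 639.9 and 647 against 531 and 339.99, and Cdc20, an activator of the anaphase ubiquitin ligase, at 359.7 and 509 against 305 and 228. In all 4 genes replicate 2 at 4.5 mg/kg/day was the lowest of the arrays compared. Helicase subunits Mcm2, Mcm3, Mcm4, Mcm5, Mcm6 and Mcm7 were each lower without overlap, with differences of -1.12 for Mcm5 and -0.59 for Mcm3. Mki67, the proliferation antigen, overlapped at 506 and 925 against 561 and 319. Median levels as deposited were 7.82 and 8.13 at 1.5 mg/kg/day and 7.75 and 6.95 at 4.5 mg/kg/day. The median difference was -0.82 without replicate 1 at 4.5 mg/kg/day and -0.30 without replicate 2, so the second array carried much of it.

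Smooth muscle genes were lower too. Smooth muscle lines vessels, ducts and hollow organs. Myocd, the coactivator that drives its genes, was at 80.9 and 241 at 1.5 mg/kg/day and at 26.02 and 38.3 at 4.5 mg/kg/day, a difference of -1.64 ± 0.45. Mylk, the kinase that starts its contraction, was at 912 and 529 against 311 and 296. Cnn1, the calponin of mature smooth muscle, was at 208 and 69.02 against 26.7 and 27.6, and Acta2, its actin, at 2815 and 2736 against 2210.2 and 1752. None overlapped. In the list 6 of 11 (54.5%) were lower without overlap, against 16.8% of all genes. The list's median was -0.81, and -0.34 without replicate 1 at 1.5 mg/kg/day. The saline arrays had Cnn1 at 1062 and 287 and Mylk at 2344 and 1085, above the arrays of both doses compared. Desmin, Des, which skeletal muscle also holds, had a difference of 0.03 and overlapped, at an adjusted p of 0.974.

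Matrix genes showed smaller differences. Fn1, fibronectin, was at 1981 and 2260.1 against 1189 and 1193, a difference of -0.97 ± 0.20. Col5a1, a minor fibril collagen, was at 1880.3 and 1721 against 1655 and 1336, and Col6a2, of the beaded filaments around cells, at 3059 and 2664 against 2387 and 2144. Of 23 collagen and matrix genes 7 (30.4%) were lower and 1 (4.35%) higher without overlap, against 16.8% and 13% of all genes. The list's median was -0.28. Among 31 TGF-beta signalling genes, 4 were lower and 2 higher, below the shares of all genes, with a median of -0.11. Tgfb2, a ligand of the pathway, was at 209.6 and 184 against 133 and 115. Tgfbr3, its coreceptor, was higher at 792 and 858 at 4.5 mg/kg/day against 552 and 623 at 1.5 mg/kg/day. Tgfbi, a matrix protein induced by the pathway, was lower at 479 and 654 at 4.5 mg/kg/day against 944 and 667 at 1.5 mg/kg/day.

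Palate genes were split in direction. The list holds regulators of the growth, elevation and fusion of the shelves, of which 40 had a probe set and 34 were tested. Without overlap, 10 (29.4%) were lower and 5 (14.7%) higher at 4.5 mg/kg/day, against 16.8% and 13% of all genes. The list's median was -0.28. Shh, a signal made by palate epithelium, was at 114 and 124 against 60.5 and 28.3, a difference of -1.12 ± 0.31, while its other probe set went the opposite way. Ptch1, the receptor of Shh, and Gli3, its transcription factor, were also lower, with differences of -0.74 and -0.58. Fgfr2, the receptor of growth factors from the mesenchyme, was at 212 and 145 against 89.6 and 87.4. Hand2, a transcription factor of both palate and heart, was at 42.2 and 143 against 15.7 and 19.5.

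On the higher side, Lhx8, a LIM homeobox factor of the shelf mesenchyme, was at 11.8 and 7.63 against 27.9 and 18.5, close to background. Its mean of 4.68 at 1.5 mg/kg/day was under the level filter. Meox2, a homeobox factor linked to cleft palate in mice, was at 311 and 254 against 351 and 385. Tbx1, the gene of the pharyngeal arches whose loss gives cleft palate, had a difference of 0.69 without overlap. The palate median was 0.02 without replicate 1 at 1.5 mg/kg/day and -0.51 without replicate 2. The list's direction thus rested on replicate 1 at 1.5 mg/kg/day, the array with cartilage and cornified epithelium transcripts.

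The genes followed through all comparisons, whatever their values, overlapped for the most part. The exceptions were Snai2 and, given in other paragraphs, Cdh1, Shh and Chrna1. Tgfb3, the ligand needed for fusion of the shelves, was at 274 and 196 against 171 and 195 and overlapped after normalization, at an adjusted p of 0.776 in limma. Tgfbr2, its receptor, was at 735 and 644 against 821 and 764 (adjusted p = 0.92 in limma). Jag2, a Notch ligand of oral epithelium, was at 69.1 and 73.2 against 55.4 and 83.4, and Trp63, the regulator of stratified epithelium, at 114 and 62.2 against 36.4 and 76.7; the adjusted p was 0.968 for Jag2 and 0.772 for Trp63 in limma. Msx1, a mesenchymal homeobox factor, was at 35.3 and 21.1 against 38.5 and 29, and Twist1, a mesenchymal regulator, at 175 and 62.4 against 72.8 and 88.7, with adjusted p of 0.785 and 0.886. Snai2, a repressor of E-cadherin, was lower without overlap at 184 and 192 at 4.5 mg/kg/day against 341 and 213 at 1.5 mg/kg/day, a difference of -0.46 ± 0.31 (adjusted p = 0.719 in limma). Without replicate 1 at 1.5 mg/kg/day the difference of Twist1 turned from -0.27 to 0.46 and that of Tgfb3 from -0.29 to 0.01, and the signs of Jag2 and Tgfbr2 also changed between settings. Cyp2a5, the main nicotine-oxidizing enzyme of the mouse, had no probe set that names it alone.

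Hox genes, which mark position along the body, are background for the tissue label, since the palate itself forms in front of most Hox domains. Hoxc8, of the trunk, was at 123 and 149.7 at 1.5 mg/kg/day and at 37.97 and 37.1 at 4.5 mg/kg/day, a difference of -1.42 ± 0.20 (SE, limma unadjusted p = 0.000535). Hoxc6, of the same cluster, was also lower at 94.2 and 79.6 at 4.5 mg/kg/day against 148 and 153 at 1.5 mg/kg/day, with 1 of 2 other probe sets going the opposite way. Hoxa3 and Hoxa4, which act further forward, were higher: Hoxa4 was at 18.2 and 21.4 against 59.4 and 40.4 and Hoxa3 at 33.9 and 53.9 against 122 and 89.4, with the other probe set of Hoxa3 going the opposite way. Hoxc10, of the hind body, was at 198 and 12.4 against 5.58 and 4.41, so its level at 1.5 mg/kg/day came from 1 array. In all, 4 of 15 genes of groups 1 to 8 were higher and 3 lower without overlap, against 13% and 16.8% of all genes. In groups 9 to 13, 3 of 9 genes were lower. Those 3, Hoxc9, Hoxc10 and Hoxd11, had a mean under the level filter at 4.5 mg/kg/day, so their count is no support. The median of groups 9 to 13, -0.31, was 0.16 without replicate 1 at 1.5 mg/kg/day and -0.86 without replicate 2.

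Among genes of the nicotinic receptors, those of the muscle form had small differences. Chrna1, the subunit of the muscle receptor that binds the ligand, was at 301 and 262 at 1.5 mg/kg/day and at 356 and 444 at 4.5 mg/kg/day, a difference of 0.47 ± 0.24. Chrnb1, the muscle beta subunit, was at 161 and 165 against 191 and 206, a difference of 0.31 ± 0.20 (adjusted p = 0.718 in limma). Both were without overlap, and Chrna1 stood at 439 and 352 at 3.0 mg/kg/day and at 218 and 87.5 with saline. Chrnd, the delta subunit, overlapped at 60.7 and 71.7 against 73.1 and 68.7, and Chrng, the fetal gamma subunit, at 112 and 98.4 against 116 and 103. Lrp4, the agrin receptor that organizes the synapse, was lower at 80.1 and 104 at 4.5 mg/kg/day against 154 and 172 at 1.5 mg/kg/day, a difference of -0.67 ± 0.21. Of 10 muscle receptor and synapse genes tested, 2 (20%) were higher and 1 (10%) lower without overlap, against 13% and 16.8% of all genes. The list's median was 0.15.

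Of 10 neuronal nicotinic subunits with a probe set, 4 passed the level filter and 0 had arrays without overlap. Chrna3 was at 31.9 and 22.03 against 28.9 and 23.8, with adjusted p = 0.934 in limma, and its sign changed between settings. Chrnb2 was at 38.2 and 41.98 against 39.9 and 40.2, and Chrna4 at 20.6 and 13.9 against 9.38 and 16.2. Chrna9, an alpha subunit known from hair cells of the ear, had the widest difference of the 4 but overlapped, at 11.3 and 37.8 against 57.3 and 30.2, a difference of 0.71 ± 0.38. Chrna7, the subunit of the homomeric receptor, had a mean level of 4.48, under the filter, and no difference is given for it. Skeletal muscle fibre genes had a median of 0.15, with 5 of 30 (16.7%) higher without overlap, against 13% of all genes. The median of these muscle genes was -0.06 without replicate 1 at 1.5 mg/kg/day and 0.29 without replicate 2. Tcap, a cap protein of the sarcomere, had the largest difference of these, at 348 and 937 against 1126 and 2066.

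**Figure D4:**
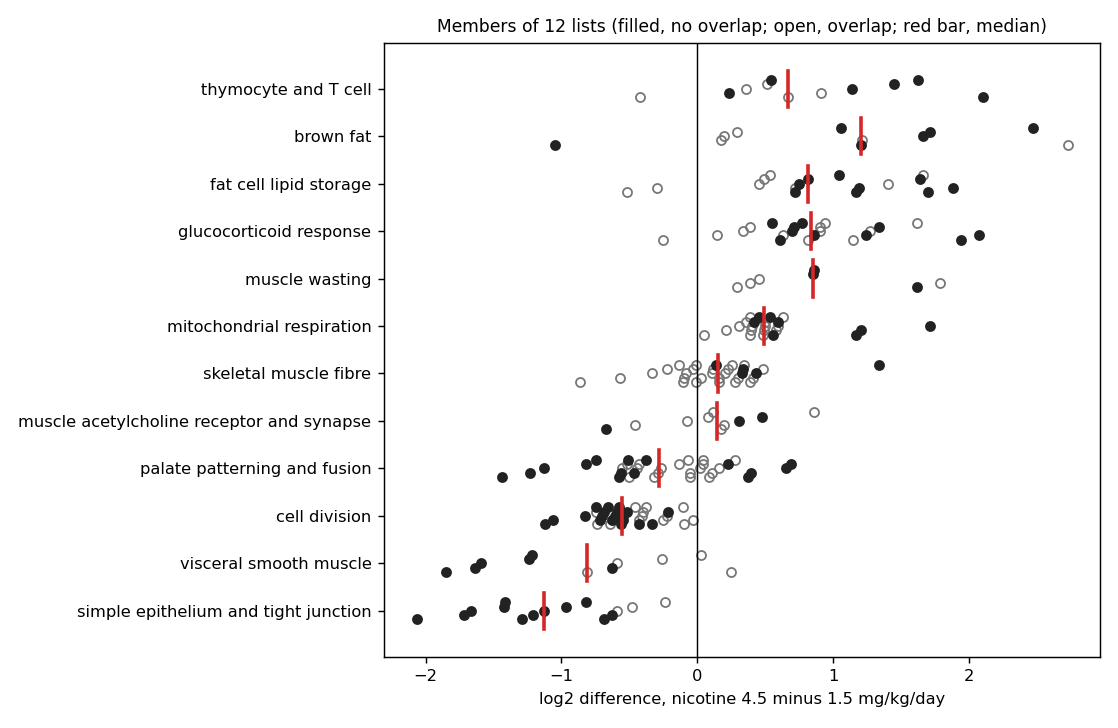
Log2 difference, 4.5 minus 1.5 mg/kg/day, of every tested gene in 12 lists, 1 point per gene. Filled points are genes whose arrays did not overlap, open points genes that overlapped, and the red bar is the list's median. The median was 0.84 for glucocorticoid response and -1.12 for simple epithelium, with all simple epithelium points left of 0. Among those points, Ocln, Cldn4 and Elf3 passed the level filter only through 1.5 mg/kg/day and are no support.

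Among myeloid genes, some of those of neutrophils were lower without overlap. S100a8 and S100a9, which form calprotectin in neutrophils, were lower: S100a9 was at 468 and 769 at 1.5 mg/kg/day and 235 and 239.6 at 4.5 mg/kg/day, a difference of -1.31 ± 0.26, and S100a8 at 689 and 1010.1 against 343 and 432. Ngp and Mpo, granule proteins of maturing neutrophils, were lower without overlap as well, Ngp at 129.9 and 90.7 at 4.5 mg/kg/day against 190.5 and 482 at 1.5 mg/kg/day. The macrophage genes Adgre1, C1qa and Csf1r overlapped, with differences of 0.05, 0.19 and -0.22. Camp and Ltf, also of neutrophil granules, overlapped as well, with differences of -1.15 and -0.46. Cd14, of monocytes and macrophages, was lower without overlap, with a difference of -0.15. In the list 5 of 17 (29.4%) were lower without overlap, against 16.8% of all genes. Endothelial genes had 1 of 18 without overlap and erythroid genes 2 of 10, all higher. Neuron and glia genes had 3 of 13 lower without overlap, osteoclast genes 2 of 13 higher, bone formation genes 1 of 6 higher and myogenic regulators 1 of 14 lower. Over all genes 13% were higher and 16.8% lower, and the osteoclast (15.4%) and bone (16.7%) shares were near that.

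Among drug metabolism genes, Cyp1b1, an oxidase induced through the aryl hydrocarbon receptor, was higher at 139 and 221 at 4.5 mg/kg/day against 30.9 and 92.8 at 1.5 mg/kg/day, a difference of 1.50 ± 0.43. Cyp2s1, an epithelial oxidase also tied to that receptor, was lower at 13.8 and 25.4 at 4.5 mg/kg/day against 62.1 and 118 at 1.5 mg/kg/day. Fmo2, a lung-enriched monooxygenase, was lower at 103 and 97.9 at 4.5 mg/kg/day against 146 and 331 at 1.5 mg/kg/day. The list had 1 (7.69%) higher and 3 (23.1%) lower of 13 tested, against 13% and 16.8% of all genes. Its median of -0.40 was -1.49 without replicate 1 at 1.5 mg/kg/day and 0.12 without replicate 2, the array with liver transcripts.

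Imprinted genes, expressed from 1 parental copy, had 3 (14.3%) lower and 1 (4.76%) higher of 21, against 16.8% and 13% of all genes. Kcnq1ot1, a long noncoding RNA that silences its neighbours, was at 251 and 190.02 against 76.8 and 110.1, a difference of -1.06 ± 0.28, and its 2 other probe sets were lower without overlap. Nnat, neuronatin, was at 255 and 389.9 against 170.2 and 73.99. Meg3, a maternally expressed noncoding RNA, was at 3999 and 4048 against 3448 and 2997, and all 10 of its other probe sets went the same way. Igfbp2, a binding protein of insulin-like growth factors, was among the leading lower genes at 432 and 375 against 163 and 138. Pabpn1, which controls poly(A) tail length, was at 1782 and 1992 against 925 and 725, and Fhdc1, a formin of the Golgi and microtubules, at 124 and 174 against 47.98 and 39.3. The transcript C130075A20Rik was at 117 and 114 against 23.6 and 36.7. None of these genes overlapped between the doses.

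In 5 lists of other tissues the 1.5 mg/kg/day arrays differed widely from each other. Liver genes had a median difference of -2.58, which became -4.97 without replicate 1 at 1.5 mg/kg/day and 0.00 without replicate 2. Heart genes went from -1.10 to -2.12 and to 0.27, and lung genes from -0.77 to -2.75 and to 1.18. Cartilage genes were at -1.56, and at 0.07 without replicate 1 and -3.21 without replicate 2. Keratinocyte genes were at -1.19, at 0.03 and at -2.72. Genes without overlap, all lower, were 6 of 21 for liver, 2 of 19 for heart and 0 of 11 for lung. They were 3 of 23 for cartilage and 4 of 23 for keratinocyte genes. Over all genes the share lower was 16.8%. Of those without overlap, 3 liver genes and 1 keratinocyte gene had a mean under the level filter at 4.5 mg/kg/day. They passed through their level at 1.5 mg/kg/day and are no support. Each of these medians thus depended on which array at 1.5 mg/kg/day was kept.

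Counts without overlap were also taken with 1 array left out, which for the lists was an alternative chosen after seeing the data. Over all genes this gave 21.1% higher and 29.3% lower without replicate 1 at 1.5 mg/kg/day, and 35.2% and 33.8% without replicate 2. It gave 26.6% and 31.1% without replicate 1 at 4.5 mg/kg/day, and 30.2% and 32.2% without replicate 2. Against these, simple epithelium had 12 to 14 of 15 genes lower and 0 higher whichever array was left out. Ocln, Cldn4 and Elf3 are among the 15 and are no support. Cell division genes had 19 to 32 of 32 lower and at most 2 higher. Glucocorticoid genes had 10 of 22 higher and 3 lower without replicate 1 at 1.5 mg/kg/day, and 21 higher without replicate 2. Mitochondrial genes had 8 of 23 higher without replicate 1 of either dose and 23 and 22 without replicate 2 of either dose. Palate genes had 10 of 34 higher and 11 lower without replicate 1 at 1.5 mg/kg/day, so that no direction was left.

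**Figure D5:**
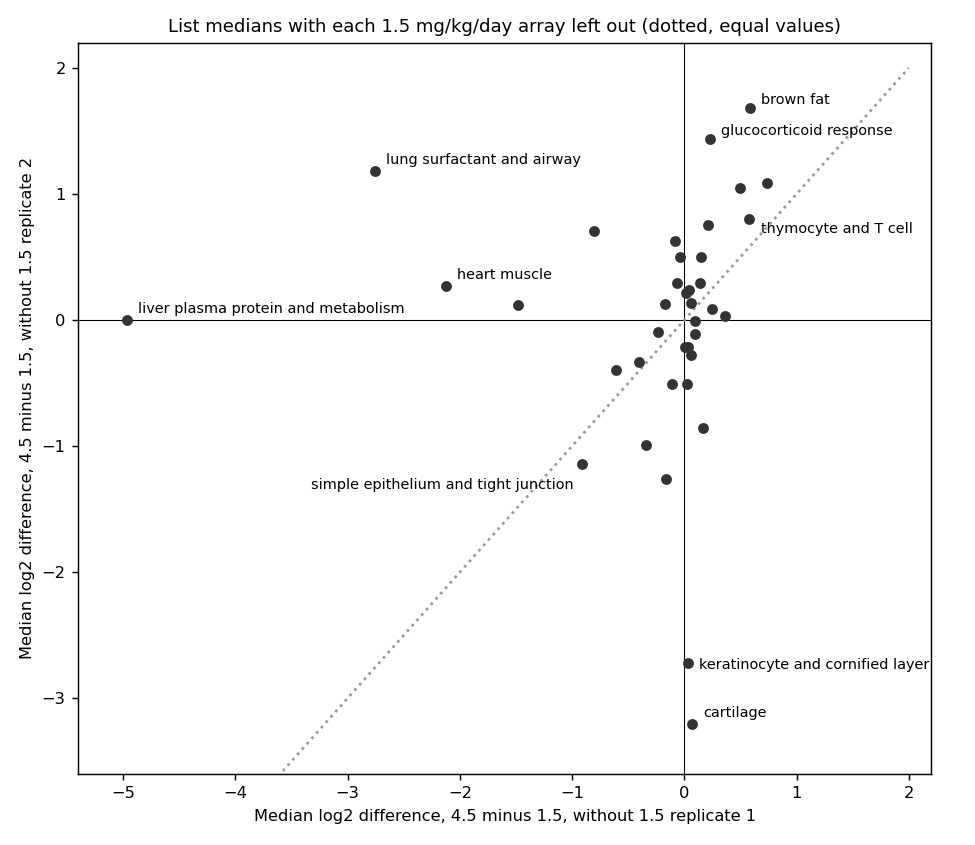
Median log2 difference of each list without replicate 1 at 1.5 mg/kg/day (horizontal) and without replicate 2 at 1.5 mg/kg/day (vertical), with a dotted line where the values are equal. Simple epithelium lay at -0.91 and -1.14, near the line. Liver at -4.97 and 0.00 and cartilage at 0.07 and -3.21 lay far from it.

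Among the settings tried, calls appeared only when an array at 1.5 mg/kg/day was left out. Without replicate 1, limma called 208 probe sets at an adjusted p under 0.05, 4 higher and 204 lower. Without replicate 2 it called 348, of which 100 were higher and 248 lower. In these fits the remaining array at 1.5 mg/kg/day was assumed to vary like the 4.5 mg/kg/day pair. Probe sets of Rag1, Trbv1, Wipi1, Apoa4, Clic3, Dsp and Tff3 were called in both fits with the same direction. Calls of opposite direction were left out by rule, so the shared direction is not a result. Both fits use the same 4.5 mg/kg/day pair, so this list is no independent support. Tff3, a mucosal repair peptide, was named because of this list. It was at 363 and 66.7 at 1.5 mg/kg/day and at 5.39 and 4.49 at 4.5 mg/kg/day, with saline arrays at 1247 and 431. Wipi1, an autophagy protein likewise named for this list, was called higher by a probe set other than its brightest. The brightest was ordered the opposite way at 324 and 382 against 270.2 and 292. Leaving out either array at 4.5 mg/kg/day gave 0 calls.

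Agreement between probe sets was checked for the named genes. Of 143 genes that the naming rule gave, 62 had other probe sets, and for 9 of them at least 1 went the opposite way: Shh, Hoxa3, Hoxc6, Hlf, Hsp90aa1, Stat2, Rrm1, Jag2 and Trp63. The directions of those 9 genes depend on which probe set is read.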

How the data were processed

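Total RNA of 4 samples of newborn palate was read on Affymetrix mouse arrays, 2 at each dose. The authors deposited 1 linear intensity per probe set and array. The software, background correction and scaling behind it are not given in the sources used here. Of 45101 probe sets, 64 were controls, 34945 named 1 gene in the platform annotation (34741 of them matched to the reference table by Entrez ID), 932 named several and 9160 none. Values were taken as log2(intensity + 16) and the 4 arrays quantile normalized. The 23174 probe sets with a mean at or above the 40th percentile (log2 4.91) were tested with limma 3.58.1 in R 4.3.3, two-sided, with 2 residual and 5.47 total degrees of freedom and Benjamini-Hochberg adjustment. A gene was read through its probe set with the highest mean. The procedure was tested on simulated data. No column of values was left unused (0), and the number of arrays limits the precision.

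Named genes were the 12 with the smallest p in each direction among those without overlap, up to 4 such genes of each of 44 lists, and 13 fixed genes. Members and lists were chosen with earlier results of these data known. Other list members and marker genes were named as examples after their values were seen. Promoters came from RefSeq, and 103 of the 143 named genes had one.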

Additional observations from a re-analysis of the deposited data

How the results depend on the processing

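The count of 0 called probe sets held with values as deposited, median centring, pseudocounts of 1 and 64, no level filter, a filter at the 60th percentile, 1 probe set per gene, the 6 nicotine arrays, all 8 arrays, and a trended robust prior. Deviations of arrays with the same replicate number had a correlation of -0.19 across genes. With 2 arrays per dose this cannot settle what arrays with the same number share, which was not tested. With the replicate number as a block, 0 were called (lowest adjusted p 0.866, 1156 with an unadjusted p under 0.05 in limma), and the crossed block, chosen after seeing the data, also gave 0 (lowest adjusted p 0.51). Leaving out 1 array gave 0 to 348 calls. The lowest adjusted p was 0.318 with the 6 nicotine arrays and 0.255 with all 8. The number of genes tested ran from 10447 with the filter at the 60th percentile to 18193 with no level filter, so counts differ in their base. Genes without overlap numbered 1333 to 2570 higher and 1751 to 3143 lower over the scaling, pseudocount and filter settings. With 1 array left out they numbered 2861 to 4739 higher and 3906 to 4518 lower, since fewer arrays overlap less. Of 38 lists with 5 or more genes, 25 of 37 kept the side of 0 of their median without replicate 1 at 1.5 mg/kg/day, and 34 of 38, 33 of 38 and 34 of 36 without replicate 2 at 1.5 mg/kg/day and without replicates 1 and 2 at 4.5 mg/kg/day. Directions turned for 5 named genes. As deposited, Jag2 was at -0.048 and Chrna3 at -0.015. With 1 array left out, differences ran from -0.19 to 0.27 for Jag2, from -0.13 to 0.28 for Chrna3, from -0.092 to 0.26 for Tgfbr2, from -0.60 to 0.0096 for Tgfb3 and from -0.99 to 0.46 for Twist1. The cause was not tested. No other gene that the naming rule gave changed direction in the settings in which its probe set was tested. Genes named only as examples were not followed through the settings. Adjusted p of named genes ranged from 7.47e-05 to 1 over all settings. Signals near background limit what the T cell and intestinal genes can show.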
